A study of Mus musculus with 4 samples.

Results

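The nuclear genes of the mitochondrial respiratory chain were followed across 4 groups of mouse kidneys through 87 of the 12394 genes that the arrays could name. Members were all genes with a probe set naming 1 gene and a symbol that begins with Ndufa, Ndufb, Ndufc, Ndufs, Ndufv, Sdha, Sdhb, Sdhc, Sdhd, Uqcr, Cox4, Cox5, Cox6, Cox7, Cox8 or Atp5, so names alone chose them and no measured value did. By role, 79 members encode structural subunits, with 34 in complex I, 4 in complex II, 8 in complex III, 16 in complex IV and 17 in complex V. The other 8 carry a matching symbol but encode assembly factors, which help build complexes I and II without staying in them. A probe set is a group of short probes for 1 transcript, and the 87 genes had 160 of them. Each of the 46 genes with several was represented by the 1 whose 4-array mean was highest. Ndufa11, Ndufb4 and Ndufs6 are not represented, since their probe sets name several genes.

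Affymetrix arrays were used to profile whole kidney from male-labelled C57BL/6 mice aged 17 weeks, with 1 array for each group. Saline+Water mice were injected with salt solution and drank plain water, while Saline+Captopril mice received the same injections and captopril, which blocks angiotensin converting enzyme, at 100 mg/kg/day in the water. Both GN groups were given chronic glomerulonephritis (GN), an inflammation of the filtering units, by peritoneal injection of 10 mg of horse spleen apoferritin on 5 days of each week for 6 weeks, with 100 µg of lipopolysaccharide 3 times weekly as adjuvant, and drank water (GN+Water) or captopril at the same dose (GN+Captopril). Kidneys were collected after 9 weeks, and the study asked whether captopril lessens interstitial injury. No group received lipopolysaccharide alone, so antigen and adjuvant cannot be told apart. The labels state groups of 6 mice and leave unsaid whether an array held RNA of 1 mouse or of a pool. With 1 array per group no value has an error and no test was possible, so precision is limited throughout by the number of arrays. In whole tissue, fewer cells of a type and less RNA per cell cannot be told apart.

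The respiratory chain moves electrons along the inner mitochondrial membrane and stores their energy as a proton gradient. Complex I takes electrons from NADH and complex II from succinate, ubiquinone carries them to complex III, cytochrome c carries them to complex IV, and complex IV hands them to oxygen. Complex V, the ATP synthase, lets the protons flow back and makes ATP. Complex II is built from nuclear genes alone, whereas the other complexes also hold subunits encoded in mitochondrial DNA. Tubule cells of the kidney are rich in mitochondria because salt reabsorption is costly in ATP. Many of the nuclear subunit genes are known targets of NRF1, of the ETS-family factor GABP and of YY1.

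Promoter sequences are shown because such shared control letters are a property of the group that the choice by name did not use. RefSeq promoter windows of 300 bases, from 250 bases before to 50 bases after the annotated start (GRCm38.p6), were matched by symbol for 73 of the 87 members, which have 78 such windows. They were searched on both strands for GCGCANGCG (NRF1), ACTTCCG (ETS factors) and AAGATGGC (YY1). The NRF1 letters are nearly the same on both strands, so 1 place can match on each. The stretches below give 1 member with NRF1 letters for each complex, and Atp5pb, which has the other motifs and was among the members with the widest range over the arrays. Each is written 5′ to 3′ along its gene, all on the minus strand, with the motifs in capitals.
Ndufs5, complex I, chr4:123718256-123718306: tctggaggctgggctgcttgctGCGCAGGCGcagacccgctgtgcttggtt
Sdha, complex II, chr13:74350241-74350345: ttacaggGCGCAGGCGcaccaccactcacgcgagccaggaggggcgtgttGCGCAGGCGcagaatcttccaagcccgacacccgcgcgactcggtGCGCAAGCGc
Uqcr11, complex III, chr10:80406817-80406896: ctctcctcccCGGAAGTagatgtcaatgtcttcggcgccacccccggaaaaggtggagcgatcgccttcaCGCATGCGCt
Cox6a1, complex IV, chr5:115349058-115349128: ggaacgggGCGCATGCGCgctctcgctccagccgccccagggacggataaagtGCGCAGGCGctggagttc
Atp5h, complex V, chr11:115419944-115420069: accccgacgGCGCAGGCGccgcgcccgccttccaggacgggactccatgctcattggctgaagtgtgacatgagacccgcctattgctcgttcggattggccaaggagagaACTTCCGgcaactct
Atp5pb, complex V, chr3:105959254-105959323: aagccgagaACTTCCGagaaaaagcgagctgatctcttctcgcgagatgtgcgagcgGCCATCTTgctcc

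In the Sdha stretch the NRF1 letters occur 3 times, starting at positions -98, -55 and -10 relative to the start. In Uqcr11 both motifs lie on the opposite strand, the ETS letters at -65 and the NRF1 letters at -5. In Cox6a1 a place at -162 matches on one strand and at -161 on the other, and a further match begins at -117. Atp5h holds NRF1 letters at -141 and ETS letters at -39, Ndufs5 holds NRF1 letters at -98, and in Atp5pb the ETS letters at -51 are followed by the YY1 letters, on the opposite strand, at -3.

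Among the 78 member promoters, 21 held the NRF1 letters (26.9%), against 6.25% of all 32851 promoters and 15.4% of the 830 promoters of genes with a mean log2 value of at least 11. The ETS letters were in 13 member promoters (16.7%), against 6.42% of all promoters and 10.8% of those of the high-signal genes. The YY1 letters were in 9 (11.5%), against 2.75% and 5.18%. At least 1 of the 3 motifs was present in 39 member promoters (50%), against 13.9% of all promoters and 27.8% of those of high-signal genes. By complex, NRF1 letters were in 8 of 38 promoters of complex I genes, 3 of 6 of complex II genes, 2 of 5 of complex III, 1 of 11 of complex IV and 7 of 18 of complex V, with assembly factors counted under their complex. None of the 3 promoters of tissue isoforms (Cox6b2, Cox7a1 and Cox8b) held any of these letters. A match describes the sequence and does not show that a factor binds there.

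**Figure D1:**
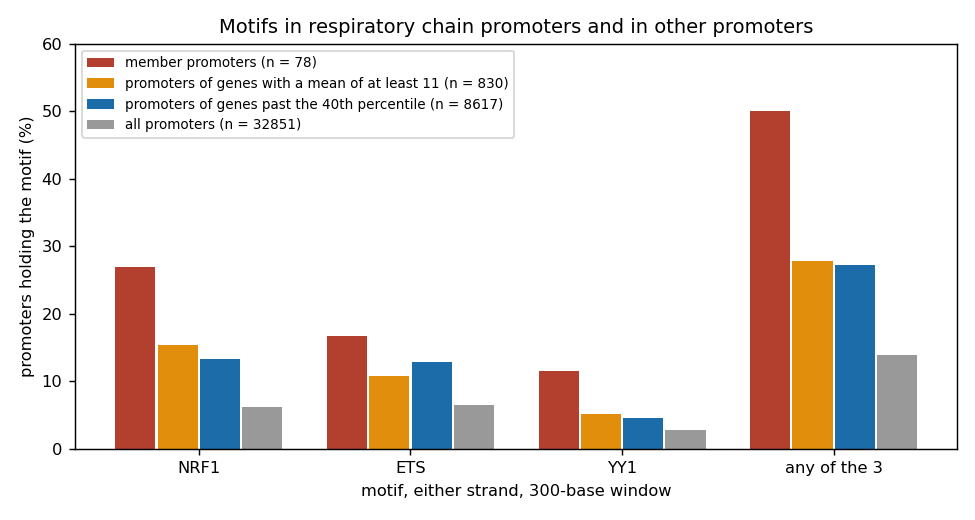
Share of promoters (y axis, %) that hold each motif on either strand of a 300-base window, for respiratory chain members and for 3 wider sets of promoters. Bars start at 0, and the member bar is the tallest for each motif, at 26.9% for NRF1 and 50% for any of the 3.

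The spread of values was similar with and without these letters. The 38 genes with any motif had a median range over the 4 arrays of 0.22 on the log2 scale, and the 35 genes without had 0.21. Without Saline+Water these medians were 0.09 and 0.10.

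All expression values are the deposited log2 probe set values, on which a difference of 1 is 2-fold. In each set of 4 values below, the order is Saline+Water, Saline+Captopril, the array labelled GN+Water and GN+Captopril. The 4 array medians lay between 6.93 and 6.99, and the highest values between 14.6 and 14.7. On the array labelled GN+Water the sex-linked transcripts went against the male label, with Xist at 8.97 (5.02 to 5.21 on the others) and the Y-linked Eif2s3y at 3.43 (8.02 to 8.29 on the others). Every direction drawn from that array carries this limit. Saline+Water stood apart in its controls, with a spike-in median of 10.8 against 7.46 to 7.89, and it correlated with the rest at 0.95 to 0.97, where the rest correlated with each other at 0.98 to 0.99. The defining kidney marker Umod was at 13.28, 13.41, 13.52 and 13.22. The results below are therefore given with and without Saline+Water where they turn on it, and the part of the discordant markers in them was not tested.

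Most respiratory chain genes kept nearly the same value on every array but Saline+Water. The median range of a member over the other 3 arrays was 0.09, against 0.20 for the 8207 genes whose mean passed the 40th percentile of all probe sets (6.27) and 0.18 for the 781 genes with a mean of at least 11. With Saline+Water included, these medians were 0.22, 0.51 and 0.41. The range without Saline+Water reached 1.5-fold for 3 of the 87 members (3.45%) and for 11.4% of the 8207 genes, and over all 4 arrays for 14 members (16.1%) and 43.1% of the genes. Among the 69 members with a mean of at least 11, the largest range without Saline+Water was 0.24, whereas 86 of the 781 genes at that level spanned 1.5-fold there. Of the 87 members, 85 passed the 40th percentile, the exceptions being Cox4i2 and Cox7c.

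Saline+Water was the lowest of the 4 arrays for 44 members (50.6%, against 41.3% of the 8207 genes) and the highest for 23 (26.4%, against 39.5%). It lay at least 0.25 below all others for 17 members (19.5%, against 25.5% of the 8207 genes) and at least 0.25 above for 5 (5.75%, against 21.7%). The lower share below did not hold at matched signal. Among the 69 members with a mean of at least 11 it was 23.19%, near the 22.02% of the 781 genes at that level. The share above stayed smaller there, at 4.35% against 11.78%. The array labelled GN+Water exceeded both captopril arrays for 45 members (51.7%, against 35.2% of the 8207 genes) and was under both for 19 (21.8%, against 42.0%). GN+Captopril was the highest array for 7 members (8.05%, against 15.3%) and the lowest for 18 (20.7%, against 13.3%). These shares count the order of single values, most of which lay close together.

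Most members differed little between the array labelled GN+Water and its saline counterpart. In GN+Water minus Saline+Water the median difference was 0.07, with 53 members above 0 and 33 below. Members at least 1.5-fold higher on the array labelled GN+Water numbered 8, where 19.6% of the 8207 genes were called higher by this fold, and 1 was lower, where 15.3% were called lower. The share of members called higher was 9.20%. Of the 69 members with a mean of at least 11, 8 were higher (11.6%), near the 12.4% of the 781 genes at that level. None of these 69 was lower, against 11.9% of the 781 genes. That split did not hold under every alternative, with 3 higher and 4 lower once shared probe sets were left out of genes that had another, 4 and 1 with median centring, and 3 and 3 when GN+Captopril replaced GN+Water. The 8 were Ndufc2, Ndufc1, Ndufa3, Ndufa5, Ndufb5 and Ndufb8 of complex I, Cox6b1 of complex IV and Atp5pb of complex V, and the lower one was Cox4i2. Just inside the threshold was Cox6b1 at 1.51-fold and just outside it Ndufa9 at 1.48-fold. Within 0.25 of no difference lay 66.7% of members and 34.0% of the 8207 genes.

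Most members were slightly lower on the GN+Captopril array than on the array labelled GN+Water. In GN+Captopril minus GN+Water the median was -0.05, with 20 members above 0 and 60 below, whereas 4157 of the 8207 genes were above 0 and 3679 below. Among the 69 members with a mean of at least 11, 13 were above 0 and 51 below, against 422 and 324 of the 781 genes. At least 1.5-fold higher was 1 member, Sdhaf1, where 3.7% of genes were called higher, and at least 1.5-fold lower were 2, Cox8b and Cox6b2, where 4.52% were called lower. Cox8b, with a mean of 6.37, passed the 40th percentile (6.27) only through the water arrays, being at 6.26 and 5.84 on the captopril arrays. Among members past the 60th percentile 0 were lower. The members next outside the threshold were Ndufaf4 at 1.25-fold higher and Cox7a1 at 1.33-fold lower. Within 0.25 of no difference lay 94.3% of members and 69.9% of genes.

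Between the saline arrays, Saline+Captopril minus Saline+Water had a median of 0.05, with 51 members above 0 and 35 below. At least 1.5-fold higher were 6 members (15.6% of genes were called higher), namely Ndufc2, Ndufc1, Ndufb6 and Ndufa3 of complex I, Atp5pb and Cox7c, and 0 were lower (10.2% of genes were called lower). Of the 69 members with a mean of at least 11, 5 were higher (7.25%), against 10.1% of the 781 genes at that level. This comparison and GN+Water minus Saline+Water share the Saline+Water array, so their values are not independent. Of the 6, Cox7c rests on a Saline+Water value near background. With shared probe sets left out 0 members were higher and 1, Ndufab1, was lower, by a probe set that gave -1.09.

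The GN and saline arrays with captopril differed least. In GN+Captopril minus Saline+Captopril the median was -0.02, with 23 members above 0 and 58 below (3924 and 3529 of the 8207 genes), and 0 members reached 1.5-fold either way, where 1.85% of genes were called higher and 0.207% lower. The largest differences were -0.42 for Cox8b and 0.25 for Sdhaf1. No member reached 2-fold in any of the 4 comparisons, a fold that 14.8%, 2.51%, 8.52% and 0.743% of the 8207 genes reached in the order given.

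**Figure D2:**
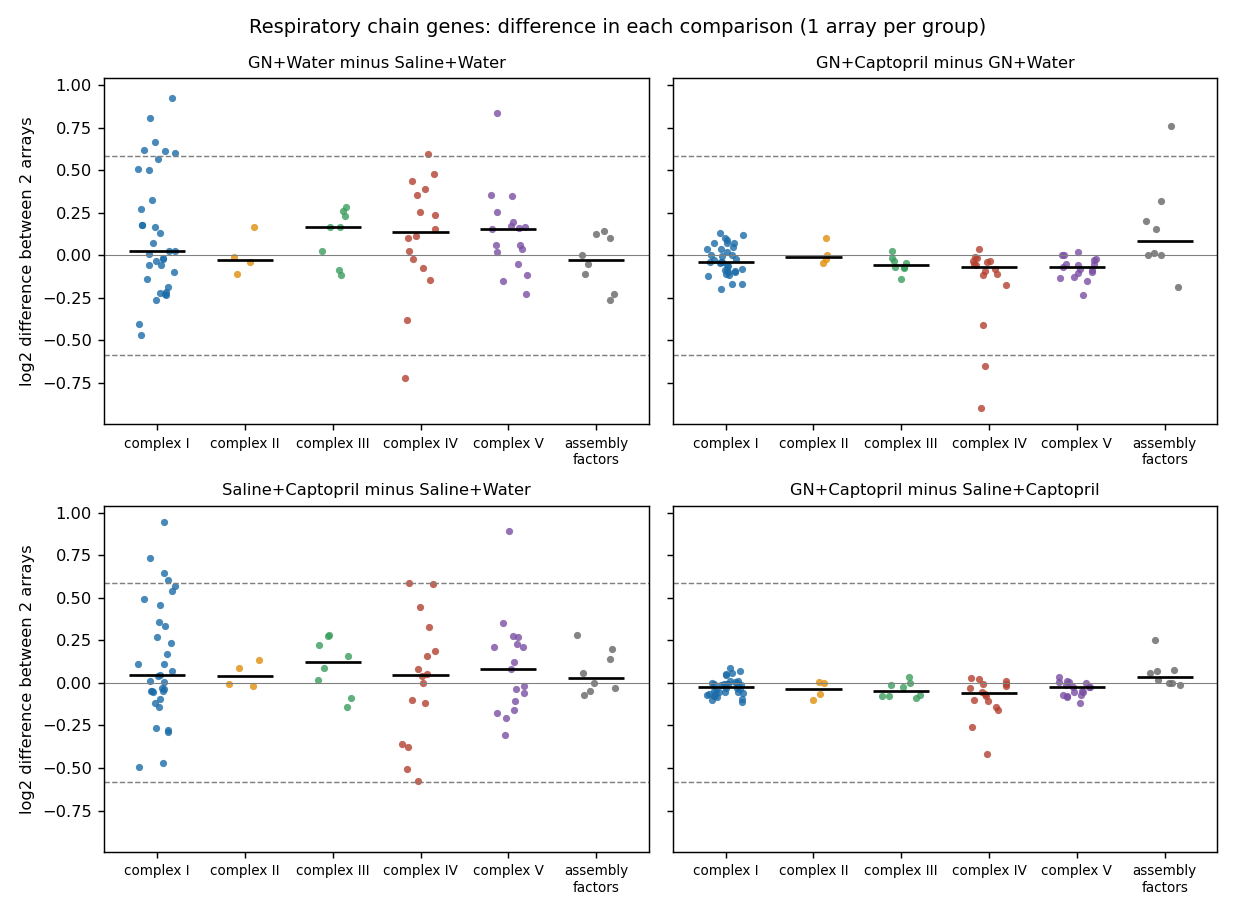
Log2 difference (y axis) of every member in each of the 4 comparisons, grouped by complex (x axis); each point is 1 gene, black bars are group medians, and dashed lines mark 1.5-fold. Points spread from -0.72 to 0.95 in the comparisons that use Saline+Water, between -0.90 and 0.76 in GN+Captopril minus GN+Water, and between -0.42 and 0.25 in GN+Captopril minus Saline+Captopril.

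The 34 subunits of complex I had median differences of 0.02 in GN+Water minus Saline+Water, -0.04 in GN+Captopril minus GN+Water, 0.05 in Saline+Captopril minus Saline+Water and -0.02 in GN+Captopril minus Saline+Captopril. The catalytic core of the matrix arm accepts electrons from NADH and passes them along iron-sulfur clusters. Ndufv1, which binds NADH and the flavin, was at 12.53, 12.06, 12.06 and 11.99. Ndufs1, the largest iron-sulfur subunit, was at 11.56, 11.53, 11.34 and 11.47. Ndufs7, which carries the last cluster before ubiquinone, was at 11.97, 11.83, 11.74 and 11.82. Ndufv1 was higher on Saline+Water than on the other 3 arrays, whose values lay within 0.07 of each other, whereas the 4 values of Ndufs1 spread over 0.22 with the array labelled GN+Water lowest.

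Ndufs3, another core subunit, was at 12.16, 11.89, 11.90 and 11.86, again highest on Saline+Water. Ndufs8, an iron-sulfur subunit of the same arm, ran the other way at 12.61, 12.84, 12.93 and 12.85. In GN+Water minus Saline+Water 5 of the 6 Ndufs genes were below 0, with a median of -0.22, and so were all 3 Ndufv genes, with a median of -0.10. The same 5 of 6 and 3 of 3 were lower on Saline+Captopril, which shares the Saline+Water baseline. Ndufs5, an accessory subunit, was at 12.10, 11.61, 11.69 and 11.65, so Saline+Water was above the other 3, which lay within 0.09. Ndufv2, an iron-sulfur subunit, and Ndufv3, an accessory one, each spanned 0.12 over the 4 arrays. The sign depended on the probe set for some of these genes, since in GN+Water minus Saline+Water another probe set of Ndufs7 gave 0.20, and the others of Ndufv2 gave 0.12 and 0.39.

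The accessory subunits of the membrane arm, which surround the core and stabilise it, included most of the members called higher in the comparisons with Saline+Water. Ndufc2 was at 11.87, 12.81, 12.79 and 12.78. Ndufc1 was at 11.90, 12.64, 12.71 and 12.54. Ndufa3 was at 12.50, 13.11, 13.17 and 13.05. For all 3 genes Saline+Water was the low array and the other 3 lay together, within 0.03, 0.17 and 0.12 of each other.

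Ndufb5 was at 11.73, 12.27, 12.34 and 12.26, and Ndufb6 at 11.55, 12.19, 12.05 and 12.12. Ndufb8 was at 12.33, 12.79, 12.93 and 12.73. These accessory subunits of the distal membrane arm had the same low array. Ndufa5, an accessory subunit of the matrix arm, was at 11.15, 11.64, 11.77 and 11.61, and Ndufa9, which lies near the ubiquinone site, at 11.53, 12.09, 12.09 and 11.98. The other accessory subunits differed less, with ranges over the arrays from 0.07 for Ndufa8 to 0.34 for Ndufa1 among Ndufa1, Ndufa2, Ndufa6, Ndufa7, Ndufa8, Ndufa10, Ndufa12 and Ndufa13, and up to 0.13 among Ndufb2, Ndufb3, Ndufb9 and Ndufb11. Relative to Saline+Water, Ndufb7 was 0.51 higher and Ndufb10 0.24 lower on the array labelled GN+Water, so the Ndufb genes as a group had a median of 0.02, and the 13 Ndufa genes had 0.17. Ndufb1, another accessory subunit, was at 7.44, 7.39, 7.38 and 7.48. Ndufa4, counted here by its name although it is now regarded as a complex IV subunit, was at 12.48, 12.52, 12.44 and 12.44. Between the GN arrays, captopril minus water, all 34 subunits lay between -0.20 and 0.13, the former being Ndufb8 and the latter Ndufs1.

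The succinate dehydrogenase genes of complex II, which also work in the citric acid cycle, differed little between arrays by the probe sets used. Sdha, the flavoprotein, was at 12.19, 12.28, 12.18 and 12.18. Sdhb, the iron-sulfur protein, was at 13.05, 13.03, 13.01 and 12.97. The ranges of the 4 arrays were 0.10 and 0.09. Another probe set of Sdha, with a mean of 11.76, gave -0.45 in GN+Water minus Saline+Water and -0.37 in Saline+Captopril minus Saline+Water. The membrane anchors were Sdhc, at 11.49, 11.48, 11.38 and 11.48, and Sdhd, at 11.88, 12.02, 12.04 and 12.02. Sdhc was lowest on the array labelled GN+Water and Sdhd was lowest on Saline+Water, and their ranges were 0.11 and 0.16.

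In complex III, which passes electrons from ubiquinol to cytochrome c, no member reached 1.5-fold in any comparison by the probe set used. Uqcrfs1, the Rieske iron-sulfur protein, was at 12.61, 12.89, 12.85 and 12.82. The core proteins Uqcrc1 and Uqcrc2 were at 12.01, 12.02, 11.92 and 11.94 and at 12.42, 12.58, 12.58 and 12.51. Uqcrc1 spanned 0.10, and Uqcrfs1 and Uqcrc2 were lowest on Saline+Water. Relative to Saline+Water, the small subunits Uqcrb, Uqcrq, Uqcrh and Uqcr11 were 0.28, 0.26, 0.17 and 0.02 higher on the array labelled GN+Water. Uqcr10 was highest on Saline+Water, at 12.80, 12.66, 12.68 and 12.66. The group medians were 0.17, -0.06, 0.12 and -0.05 in the 4 comparisons, in the order in which the comparisons were given above. Between the GN arrays 7 of the 8 genes were lower with captopril.

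Complex IV, cytochrome c oxidase, has both general subunits and isoforms known from other tissues. Its 16 genes had medians of 0.13 in GN+Water minus Saline+Water and -0.07 in GN+Captopril minus GN+Water, with 15 of 16 below 0 in the latter. Among the general subunits Cox4i1 was at 13.36, 13.51, 13.59 and 13.54. Cox5a was at 12.59, 13.04, 13.07 and 12.98 and Cox5b at 13.75, 13.80, 13.86 and 13.75. Cox6a1 was at 13.60, 13.93, 13.85 and 13.82. Saline+Water was the low array for all 4, with the clearest gap in Cox5a. The other probe sets of Cox5a gave 1.13 and 0.825 in GN+Water minus Saline+Water, where the one used gave 0.475.

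Cox6b1, a peripheral subunit on the side facing cytochrome c, was at 12.97, 13.55, 13.57 and 13.53, with Saline+Water alone low. Cox8a was within 0.04 over the arrays, Cox7a2 within 0.10 and Cox6c within 0.16. Cox7a2l, which is named with these subunits but is known for joining complexes III and IV, was at 10.63, 10.82, 10.98 and 10.81. Cox7c was at 4.21, 4.80, 4.60 and 4.64, and its Saline+Water value lay under that array's background limit of 4.81, the 90th percentile of 27 negative controls. Its place among the members called in Saline+Captopril minus Saline+Water therefore rests on a value near background, and no fold is read from it.

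The tissue isoforms gave most of the differences that did not turn on Saline+Water. Cox8b, the isoform of heart, skeletal muscle and brown fat, was at 6.63, 6.26, 6.74 and 5.84, with both captopril values under the 40th percentile (6.27). Cox6b2, an isoform known from testis, was at 7.86, 7.28, 7.83 and 7.18. Cox7a1, of heart and muscle, was at 8.53, 8.53, 8.96 and 8.55. For Cox8b and Cox6b2 both water arrays were above both captopril arrays, whereas Cox7a1 was high on the array labelled GN+Water only.

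Between the GN arrays Cox8b was 0.90 and Cox6b2 0.65 lower with captopril, and between the saline arrays they were 0.38 and 0.58 lower with captopril. Cox4i2, the isoform known from lung, was at 6.45, 5.95, 5.73 and 5.69, and Cox6a2, of heart and muscle, at 7.10, 6.74, 6.73 and 6.67, both highest on Saline+Water. Cox8c, known from testis, was at 7.77, 7.65, 7.62 and 7.51.

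Markers of the tissues in which these isoforms are known were read beside them. Of 9 skeletal and heart muscle markers, 5 were at least 1.5-fold lower and 0 higher in GN+Water minus Saline+Water. Of all 12394 genes, without the filter, 18% were lower and 15.1% higher by this fold. Between the GN arrays 0 markers were called either way (6.39% of all 12394 genes). The summed level of the list (log2 of the summed linear values) was 9.20, 8.67, 8.59 and 8.56. All 5 lower markers lay under the 40th percentile, and the 1 marker that passed it, Tnni2, was not called. The background limit was also highest on Saline+Water, at 4.81 against 4.36 to 4.51. Ckm, the muscle creatine kinase, was at 7.03, 5.82, 5.46 and 5.58, and the myosin gene Myh2 was near background on all 4 arrays.

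Of 5 brown fat markers, a list that holds Cox8b itself, 2 passed the 40th percentile, Cox8b and Ppara. The summed level was 9.84, 10.3, 10.1 and 10.3 and was carried by Ppara, a lipid-sensing nuclear receptor that kidney tubules also express, at 9.43, 9.92, 9.68 and 9.99. Ucp1, the uncoupling protein of brown fat, was at 5.22, 6.24, 5.90 and 5.90. Of 4 white and general fat markers, 3 were at least 1.5-fold higher (19.6% of the 8207 genes) and 1 lower (15.3%) in GN+Water minus Saline+Water. The lower one, Lep, had a mean of 4.34, under the 40th percentile, and was near background on 3 arrays. In GN+Captopril minus GN+Water 1 was higher (3.7%) and 0 were lower (4.52%). The medians were 0.77 and -0.06, and the summed level ran from 10.6 on Saline+Water to 11.7 on GN+Captopril. The part of other tissue in the isoform values was not tested.

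**Figure D3:**
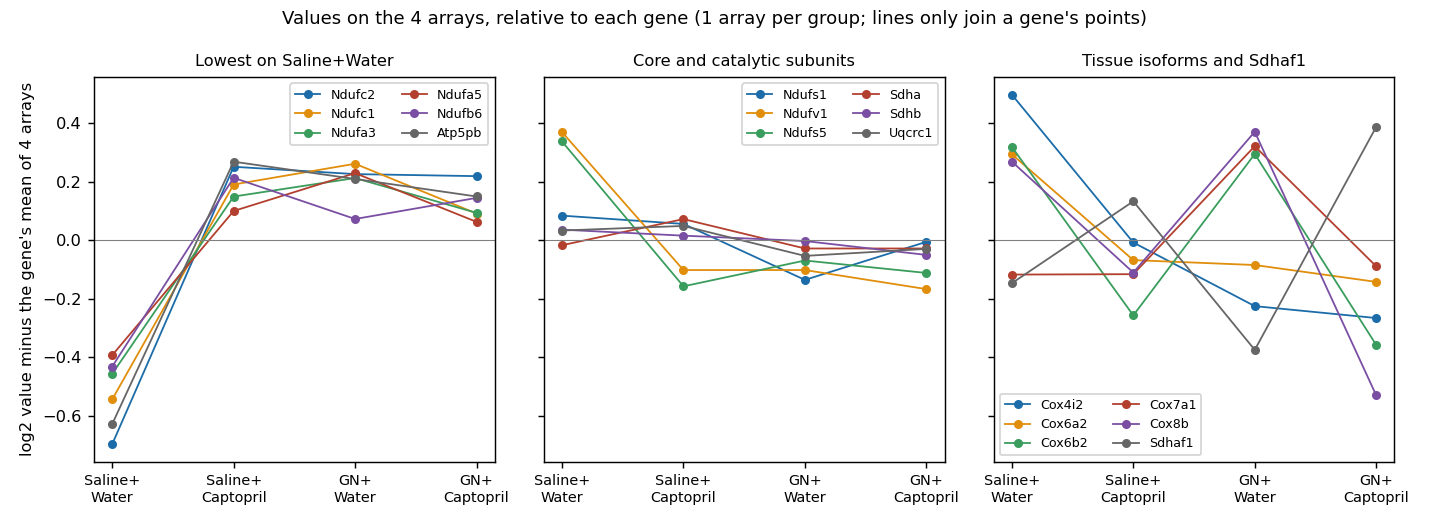
Log2 value of 18 members on each of the 4 arrays (x axis), as the difference from that gene's own mean (y axis); each point is 1 array and lines only join a gene's points. Members of the left panel are low on Saline+Water alone, Ndufv1 and Ndufs5 in the middle panel are high there, and Cox8b, Cox6b2 and Sdhaf1 in the right panel differ among the other 3 arrays.

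The catalytic head of complex V is formed by its alpha and beta subunits. Atp5a1 (subunit alpha) was at 13.41, 13.35, 13.36 and 13.31, and Atp5b (beta), which holds the catalytic sites, at 13.68, 13.89, 13.85 and 13.86. Atp5c1, the gamma subunit of the rotating stalk, was at 12.85, 13.07, 13.02 and 13.00. The alpha gene spanned 0.10 and the other 2 genes were 0.21 apart at most, with Saline+Water lowest. The other probe sets of Atp5a1 gave 0.41 and -1.79 in GN+Water minus Saline+Water, where the one used gave -0.053. Their means were 13.01 and 6.76, against 13.36 for the one used.

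The 3 genes for the c subunit, whose products form the same proton-carrying ring after processing, did not move alike. Atp5g1 was at 12.56, 12.39, 12.62 and 12.39, higher on both water arrays. Atp5g2 was at 12.45, 12.14, 12.22 and 12.12, highest on Saline+Water. Atp5g3 was at 13.32, 13.54, 13.51 and 13.49, lowest on Saline+Water. The difference of Atp5g1 in GN+Captopril minus GN+Water, -0.23, was the largest of complex V in that comparison.

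Atp5pb, subunit b of the peripheral stalk, was at 12.21, 13.10, 13.04 and 12.98, with Saline+Water low by 0.78 or more. Atp5h and Atp5o, also of this stalk, differed less, the first (subunit d) at 12.64, 12.91, 12.99 and 12.92 and the second (the oligomycin sensitivity protein) within 0.05. The other members of complex V, Atp5d, Atp5e, Atp5j, Atp5j2, Atp5k, Atp5l, Atp5md and Atp5mpl, had ranges over the arrays between 0.13 for Atp5e and 0.35 for Atp5l. Of the 17 genes, 13 were above 0 in GN+Water minus Saline+Water, with a median of 0.16, and 14 were below 0 in GN+Captopril minus GN+Water, with a median of -0.07.

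The 8 assembly factors had a median of 0.08 in GN+Captopril minus GN+Water, with 5 genes above 0, 1 below and 2 at 0, beside the 4157 of 8207 genes above 0. Sdhaf1, needed to insert iron-sulfur clusters into complex II, was at 9.06, 9.34, 8.83 and 9.59. Ndufaf4, of complex I assembly, was at 9.18, 9.38, 9.13 and 9.45. Both were higher on the captopril arrays than on the water arrays, and Sdhaf1 differed by 0.76 between the GN arrays. Ndufaf1, which acts in the building of the complex I membrane arm, was at 9.43, 9.38, 9.17 and 9.37, and Sdhaf4 at 10.27, 10.24, 10.16 and 10.31, both lowest on the array labelled GN+Water. Ndufaf5 ran the other way at 8.10, 8.03, 8.23 and 8.05. Ndufaf7 was at 8.38, 8.44, 8.48 and 8.50, and Sdhaf2, which attaches the flavin to Sdha, was at 9.74 on Saline+Water and at 9.88 on each other array.

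Ndufaf3 had the identical value of 9.61 on all 4 arrays. Of the 87 probe sets in use, 12 (13.8%) shared a value exactly on at least 2 arrays, against 16.8% of all 22690 probe sets, and these ties are a property of the deposited values.

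Probe sets of the same gene gave a check on the differences that turn on Saline+Water. In GN+Water minus Saline+Water, all probe sets had the same sign in 25 of the 46 genes with several, at least 1 probe set reached 1.5-fold in 16, and every probe set did so the same way in 2. These counts include probe sets of low signal. With only probe sets past the 40th percentile, the counts were 27, 12 and 2 of 42 genes. In GN+Captopril minus GN+Water and in GN+Captopril minus Saline+Captopril 0 of the 46 genes had a probe set at 1.5-fold. In Saline+Captopril minus Saline+Water 13 had one, and in 0 did all probe sets reach it. Cox8b, Cox6b2 and Sdhaf1 have 1 probe set each, so their differences have no such check.

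For Atp5pb the probe set used gave 0.84 in GN+Water minus Saline+Water and the other gave -0.20. Ndufa5 was 0.62 higher by the probe set used, and the other gave -0.29. For Ndufs4, an accessory subunit, the probe set used gave -0.19 and the others gave 1.44 and 1.06. Ndufab1, the acyl carrier protein, gave 0.17 by the probe set used and -1.42 by another. The 2 probe sets of Ndufa3 lay close together, at 0.67 and 0.61, those of Ndufc2 gave 0.92 and 0.55, and those of Ndufb5 gave 0.61 and 1.44. Ndufa3 and Ndufb5 are thus the genes for which every probe set reached 1.5-fold.

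**Figure D4:**
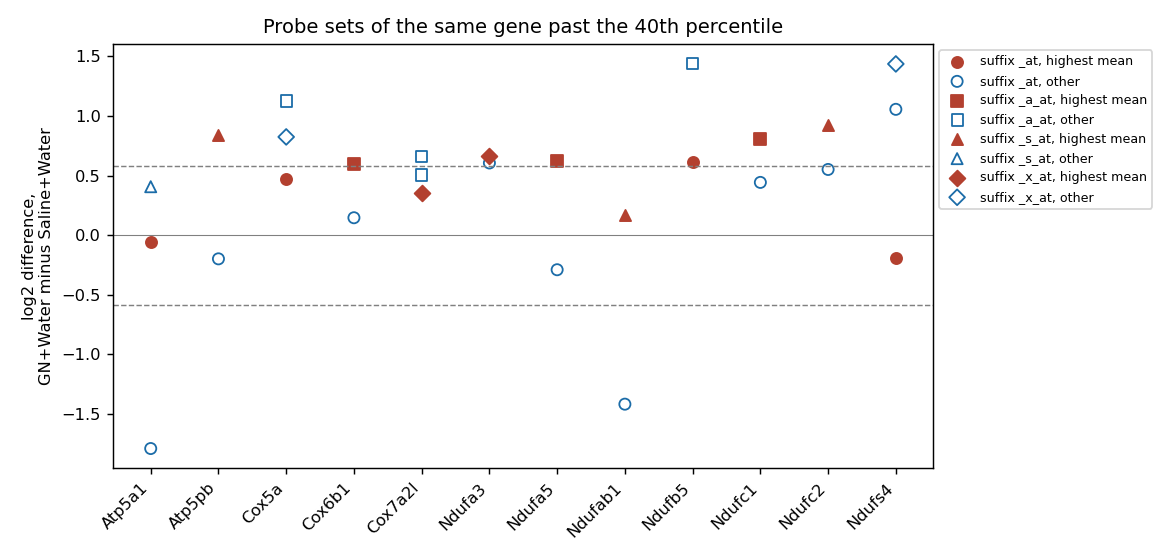
Log2 difference between the array labelled GN+Water and Saline+Water (y axis) for each probe set past the 40th percentile, in the 12 genes with several such probe sets of which at least 1 reached 1.5-fold (x axis). Filled symbols are the probe sets used, marker shapes give the suffix of the probe set name, and dashed lines mark 1.5-fold; Atp5pb, Ndufa5, Ndufab1, Ndufs4 and Atp5a1 have probe sets on both sides of 0.

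Other genes of mitochondrial energy supply were set beside the members. Of the partners of the chain, 5 of 15 listed were measured and 0 reached 1.5-fold in any comparison. Cyc1, cytochrome c1 of complex III, was at 12.25, 12.56, 12.53 and 12.53, and Cycs, cytochrome c, at 12.77, 13.15, 12.98 and 13.29. The mitochondrially encoded complex I subunit ND5 was at 14.22, 14.23, 14.21 and 14.23. Of 15 measured genes of the citric acid cycle and pyruvate entry, 0 were at least 1.5-fold higher (19.6% of the 8207 genes) and 1 was lower (15.3%) in GN+Water minus Saline+Water. In Saline+Captopril minus Saline+Water the counts were the same (15.6% and 10.2% of genes), and 0 were called in the comparisons without Saline+Water. The lower gene in both was Suclg2, a subunit of the GTP-forming succinyl-CoA ligase, at 11.67, 10.88, 10.53 and 10.79, high on Saline+Water.

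Among 18 measured genes that assemble the complexes (of 26 listed, none of them a member), 3 were at least 1.5-fold higher (19.6% of the 8207 genes) and 3 lower (15.3%) in GN+Water minus Saline+Water. In GN+Captopril minus GN+Water 1 was higher (3.7%) and 0 were lower (4.52%). Cox15, which makes heme a for complex IV, was at 10.42, 9.43, 9.02 and 9.66, and was the gene called higher in the latter comparison. Cox16, also of complex IV assembly, was at 9.17, 10.12, 9.93 and 10.04, and Timmdc1, of complex I assembly, at 6.82, 7.70, 7.70 and 7.39. Cox15 was highest on Saline+Water, where the other two were lowest. The list medians were 0.04, 0.09, 0.10 and 0.01 in the 4 comparisons.

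Of 14 regulators of mitochondrial biogenesis, 4 were at least 1.5-fold higher (19.6% of the 8207 genes) and 1 lower (15.3%) in GN+Water minus Saline+Water. In Saline+Captopril minus Saline+Water the counts were likewise 4 (15.6% of the 8207 genes) and 1 (10.2%). The lower gene in both was Esrrg, whose mean of 5.36 was under the 40th percentile. The 13 regulators that passed it gave 4 higher and 0 lower in each. Ppargc1a, the coactivator that drives the programme, was at 7.54, 9.32, 9.40 and 8.96. Gabpa, the ETS factor whose letters were searched in the promoters, was at 6.89, 8.32, 8.32 and 8.48, and Tfam, which packs and transcribes mitochondrial DNA, at 7.99, 9.12, 8.99 and 9.19. All 3 were low on Saline+Water. Between the GN arrays 0 were higher (3.7% of the 8207 genes) and 1 was lower (4.52%) with captopril, Gabpb1, the partner of Gabpa, at 7.23, 6.82, 7.76 and 7.10. Nrf1 was at 6.71, 6.50, 6.47 and 6.53 and Yy1 at 9.61, 9.25, 9.20 and 9.28.

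Among 16 genes of the mitochondrial membranes and import, 3 were higher (19.6% of the 8207 genes) and 3 lower (15.3%) by 1.5-fold in GN+Water minus Saline+Water. In GN+Captopril minus GN+Water and GN+Captopril minus Saline+Captopril 0 were called (8.22% and 2.06% of genes either way). Tomm20, an import receptor, was at 10.96, 12.57, 12.45 and 12.41, Vdac3, an outer membrane channel, at 10.50, 11.34, 11.40 and 11.29, and Phb2, an inner membrane scaffold, at 11.89, 10.94, 10.73 and 10.89. Tomm20 and Vdac3 were low and Phb2 was high on Saline+Water.

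Leukocyte markers differed far more between these arrays than the members did. All 7 leukocyte markers were at least 1.5-fold higher in GN+Water minus Saline+Water, with a median difference of 1.93, and 5 of 7 were at least 1.5-fold lower in GN+Captopril minus GN+Water, with a median of -0.71. The summed leukocyte level was 11.2, 11.2, 12.7 and 12.0. The 8 proximal tubule markers had medians of -0.22 in GN+Water minus Saline+Water and -0.03 in GN+Captopril minus GN+Water, and summed levels of 15.8, 15.6, 15.5 and 15.6. Of the 8, 1 was higher (19.6% of the 8207 genes) and 1 lower (15.3%) by 1.5-fold in the first of these comparisons. These were Cubn, an uptake receptor, at 11.24, 11.63, 11.90 and 11.62 and the transporter Slc22a6 at 12.53, 11.85, 10.60 and 12.00. The 4 thick ascending limb markers had medians of 0.85 and -0.34, with summed levels of 13.8, 14.2, 14.4 and 14.0. The 3 distal convoluted tubule markers had medians of -0.42 and -0.36, with summed levels of 12.2, 11.5, 11.7 and 11.3. Medians were 0.24 and -0.48 for 3 measured collecting duct markers and -0.28 and -0.20 for 3 of the glomerulus. For 4 adrenal cortex markers they were -0.15 and 0.36. The part of these shifts in the respiratory chain values was not tested.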

How the data were processed

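The authors deposited 1 log2 value for each of 22690 probe sets on each of 4 arrays, and these values were taken unchanged. The submitters' processing notes name GCOS and RMA without version or role, and normalization and genome build are not stated in any source used here. Names came from the platform annotation, brought to GRCm38.p6 symbols by Entrez ID, and probe sets with several symbols (691) or none (1606) were dropped, leaving 20393. The probe set of highest mean stood for its gene, and 8207 genes past the 40th percentile (6.27) formed the background.

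Differences are between 2 arrays, with 1.5-fold as the threshold, and 1 array per group allows no test. Members named with values were the 5 highest and 5 lowest in each comparison, the 10 with the widest range, every tissue isoform and the central subunits, and others named were chosen after their values were seen. From the other pathway lists, up to 3 genes with the largest differences and the factors tied to the motifs were named. The members, lists and alternatives were chosen with earlier results of these data known, and the level of 11 was set after seeing these values. Suffixes of probe set names mark probes shared between transcripts or genes (_a, _s and _x). The counting code was tested on simulated data. Python 3.11.15, pandas 2.3.3, numpy 2.4.6 and matplotlib 3.10.9 were used. Alternatives were the mean of all probe sets, leaving out shared probe sets (where a gene had another), median centring, quantile normalization, other filters and folds, other member sets and other baseline arrays.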

Additional observations from a re-analysis of the deposited data

How the results depend on the processing

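The median difference over members moved by less than 0.1 in all 45 alternative values. This limit was larger than each reported median, so a change of sign could stay within it. The median of GN+Captopril minus Saline+Captopril turned from -0.02 to 0.03 on a Saline+Water baseline. That of GN+Water minus Saline+Water went from 0.07 to 0.02 with median centring and also without shared probe sets. Of 49 alternative counts of members at least 1.5-fold apart, 38 stayed within 1.5 times the value reported and 11 did not. The cause was not tested. In GN+Water minus Saline+Water the count of 9 became 5 with median centring, 0 on a Saline+Captopril baseline and 0 at 2-fold. Without shared probe sets its split of 8 higher and 1 lower became 3 and 4. Of those 4 lower, Cox4i2, Atp5c1 and Uqcrq had means under the filter level of 6.27 by the probe sets then taken. In GN+Captopril minus GN+Water the count of 3 became 1 past the 60th percentile, 1 without tissue isoforms, and 0 with Saline+Captopril in place of GN+Water, among members with a mean of at least 11 (an alternative chosen after seeing the data) and at 2-fold. In Saline+Captopril minus Saline+Water the count of 6 (6 higher, 0 lower) became 1 without shared probe sets (0 higher, 1 lower) and 0 at 2-fold, and in GN+Captopril minus Saline+Captopril the count of 0 became 6 on a Saline+Water baseline. Of 99 alternative values for single genes, 59 moved little, 35 moved more and 5 changed sign. Without shared probe sets, Atp5pb was at -0.20 in GN+Water minus Saline+Water and -0.12 in Saline+Captopril minus Saline+Water, and Ndufa5 was at -0.29 in the former. On a Saline+Captopril baseline, Atp5pb was at -0.059 and Ndufc2 at -0.025 in GN+Water minus Saline+Water. No paired analysis was possible because each group has 1 array. Signal close to background limits Cox7c, and the deposited values hold no measure of probe saturation.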
